A study of Bos taurus with 21 samples.

Results

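Calpains, their inhibitor calpastatin and the muscle ubiquitin ligases were followed in foetal cattle muscle by the probes of 10 genes. A probe was taken when the RefSeq transcript named for it in the array files belongs to *CAPN1*, *CAPN2*, *CAPN3*, *CAPN6*, *CAPNS1*, *CAST*, *FBXO32*, *TRIM63*, *TRIM54* or *TRIM55*, whatever its values. This gave 34 of the 43653 non-control probes of the array, and 10 of its 12538 named genes. All 34 probes were well above background on all 21 arrays. An expression filter asked for a group mean above the median probe of a typical array in at least 7 of the 8 groups. It was passed by 29 of the 34 probes, and by at least 1 probe of each gene.

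The arrays held muscle RNA of foetuses from Blonde d'Aquitaine (BA), a muscular French beef breed in which a *MSTN* mutation is known, and Charolais (CH), a French beef breed, each foetus bred within its breed. Foetuses were taken at 110, 180, 210 and 260 days post conception (dpc), with 3, 2, 3 and 2 BA and 2, 3, 3 and 3 CH foetuses at these stages and 1 array per foetus. The labels give no *MSTN* genotype for any foetus. They name the muscle *Longissimus thoracis*, whereas the study's methods name *Semitendinosus*. Each breed had 2 sires. Males made up 3 of the 10 BA and 5 of the 11 CH foetuses. The 6 slides were scanned over 3 days.

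Calpains are calcium-dependent proteases that cut their targets at a limited number of places. The ubiquitous calpains 1 and 2 pair a large subunit with the small subunit made by *CAPNS1*, and both are inhibited by calpastatin, the product of *CAST*. In beef, calpain 1 and calpastatin are known for their part in tenderization after slaughter, and variants of both genes have been used as tenderness markers. Atrogin-1 (*FBXO32*) and MuRF1 (*TRIM63*) are ubiquitin ligases that mark muscle proteins for the proteasome, and are widely used as readouts of muscle wasting. MuRF3 (*TRIM54*) and MuRF2 (*TRIM55*) are relatives of MuRF1 that bind microtubules and the sarcomere.

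Each gene was read by its brightest probe past the filter, here called its main probe. Values are normalized log2 intensities, where 0 is the level of the median probe of a typical array and 1 unit is a doubling. Levels of different probes were not set against each other, since probes differ in their binding. Group means were compared with limma, and a probe was called at a Benjamini-Hochberg adjusted p under 0.05 over all 20132 probes past the filter. The number of probes well above background was 29027 to 34508 per array. The arrays of 1 group correlated at 0.9697 to 0.9862.

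The skeletal muscle label was checked with marker genes. The 7 of 8 fibre markers with a probe, such as *ACTA1* and *CKM*, were all well above background on every array. The log2 of their summed intensity was 12.39 to 12.70 over the foetuses of 110 dpc and 13.61 to 13.83 over those of 260 dpc. Not all of them were higher at 260 dpc. The differences were 3.11 for *CKM*, 2.59 for *TNNT3*, 2.57 for *ACTA1*, 1.03 for *DES* and 0.71 for *MYL11*, but -0.83 for *MYH3* and -0.15 for *MYH8*. *NPPA*, the single cardiac marker of 3 with a probe, was below that mark on all 21 arrays. Summed markers of other cell types differed by stage as well. Those of cartilage (2 of 3 with a probe) lay at 4.10 to 8.02 at 110 dpc and at 1.06 to 2.90 at 260 dpc, erythroid markers (4 of 4) at 8.76 to 9.41 and 5.53 to 7.69, and smooth muscle markers (3 of 3) at 8.05 to 8.44 and 6.51 to 7.90. The single smooth muscle markers went in both directions from 110 to 260 dpc, with *ACTA2* at -1.63, *CNN1* at -0.43 and *MYH11* at 2.73. Schwann cell and nerve markers (4 of 4) were higher in sum at 260 dpc, with 4.29 to 4.71 before and 5.39 to 6.44 after. The stages overlapped for connective tissue (6 of 6, 10.86 to 11.84 and 10.19 to 10.91), leukocytes (5 of 5, 3.88 to 4.38 and 4.24 to 4.50) and adipocytes (4 of 5, 0.47 to 3.28 and 0.95 to 4.85). Their part in the stage differences below was not tested. In muscle RNA as a whole, fewer cells of a type and less RNA per cell cannot be told apart.

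The first comparison asked how the 10 genes changed over later gestation, from 110 to 260 dpc with the breeds weighted equally. *TRIM63*, *TRIM54*, *CAPN3*, *FBXO32* and *CAST* rose and *CAPN6* fell. The main probes of *CAPN1*, *CAPN2*, *CAPNS1* and *TRIM55* were not called. The count of 6 of 10 stood beside a background of 64.1% of all tested probes, 33.3% higher and 30.8% lower at 260 dpc. The median difference was 0.34 over the members and 0.04 over all tested probes, while the median size of the difference was 0.74 and 0.44. The values of all foetuses of 260 dpc lay apart from all of 110 dpc for the same 6 genes, 5 higher and 1 lower, where 47.2% of all tested probes did so.

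**Figure D1:**
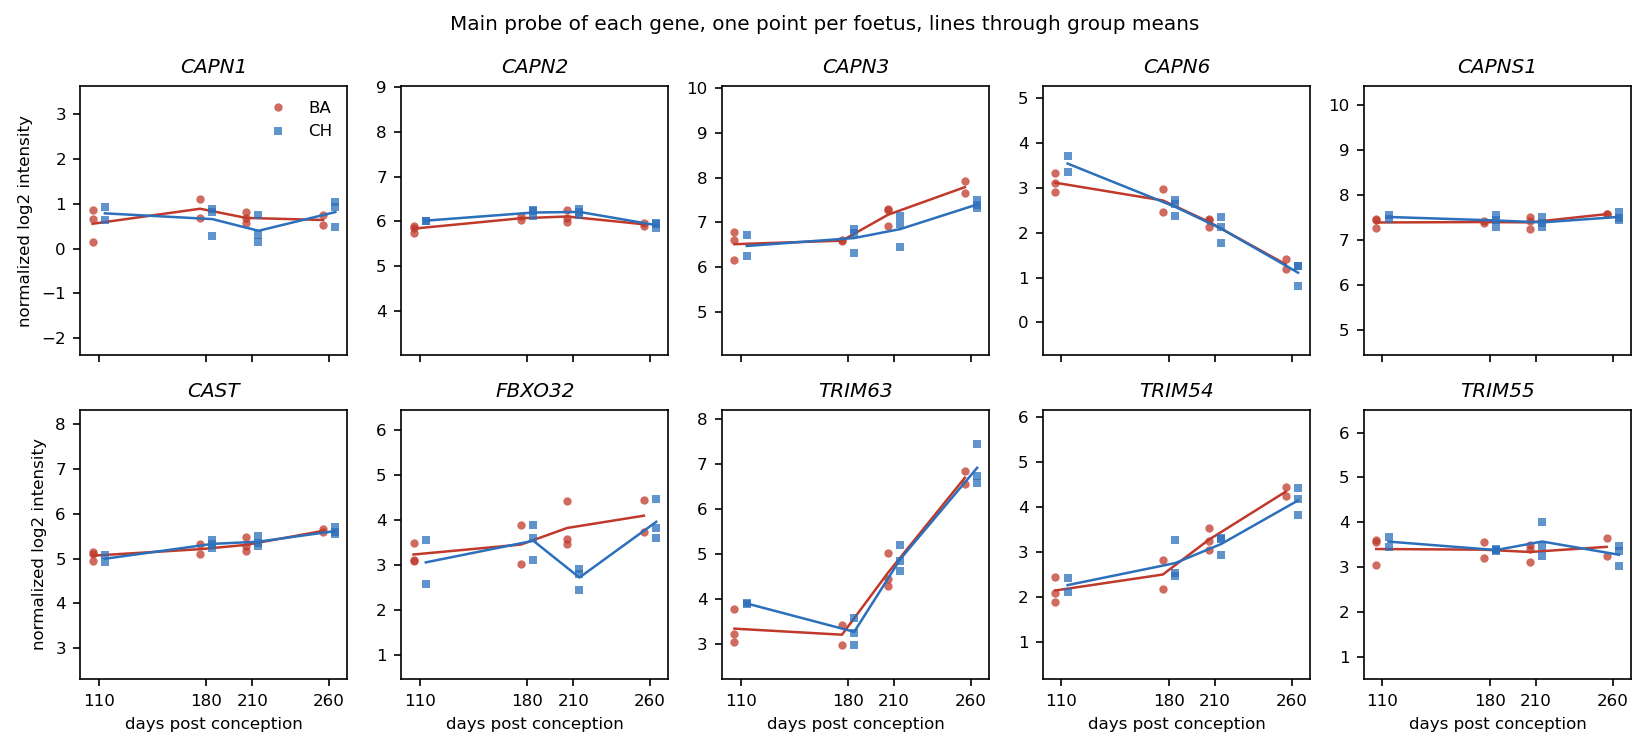
Normalized log2 intensity of the main probe of each gene (y axis, the same span of 6 log2 units in every panel) against days post conception (x axis, BA and CH set slightly apart). Each point is 1 foetus, red circles BA and blue squares CH, and lines join group means; *TRIM63* climbs from 3.04 to 3.90 at 110 dpc to 6.55 to 7.46 at 260 dpc, and *CAPN6* descends throughout.

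*TRIM63* had the largest change of the 10 genes. MuRF1, its product, is an M-band-associated ligase of myosin and other thick filament proteins. In BA its values were 3.04, 3.77 and 3.22 at 110 dpc, 2.99 and 3.43 at 180 dpc, 4.29, 4.44 and 5.04 at 210 dpc, and 6.55 and 6.85 at 260 dpc. In CH they were 3.90 and 3.90, then 3.25, 3.59 and 2.98, then 4.86, 5.20 and 4.62, and finally 7.46, 6.73 and 6.58. Every foetus of 210 dpc was above every younger foetus, and every foetus of 260 dpc above every foetus of 210 dpc. From 110 to 260 dpc *TRIM63* rose by 3.19 (SE 0.20, limma adjusted p = 5.12e-10), or 9.13-fold, and only 195 of the 20132 tested probes changed by more. The later intervals were the called ones. The difference was -0.38 from 110 to 180 dpc (adjusted p = 0.192), 1.50 from 180 to 210 dpc (SE 0.19, adjusted p = 0.000235) and 2.07 from 210 to 260 dpc (SE 0.19, adjusted p = 4.66e-07). The other *TRIM63* probe, which did not pass the filter, rose by 2.77 in a fit of all probes of the array, of which 43.9% were called.

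*TRIM54* rose over the same period. MuRF3, its product, stabilizes microtubules in developing muscle cells. The BA values were 2.09, 2.45 and 1.90 at 110 dpc, 2.18 and 2.82 at 180 dpc, 3.24, 3.05 and 3.53 at 210 dpc, and 4.25 and 4.44 at 260 dpc. The CH values were 2.42 and 2.10, then 2.52, 3.27 and 2.46, then 2.94, 3.28 and 3.31, and finally 3.83, 4.18 and 4.43. The lowest foetus of 260 dpc was above the highest of 210 dpc, whereas 180 dpc overlapped both of its neighbours. *TRIM54* rose by 2.04 from 110 to 260 dpc (SE 0.18, limma adjusted p = 3.41e-08), or 4.12-fold, and its other probe rose by 1.97. The first interval gave 0.42 (SE 0.18, adjusted p = 0.105) and the last 1.02 (SE 0.17, adjusted p = 0.000158). The step from 180 to 210 dpc gave 0.60 (adjusted p = 0.0366) and lost its call in 12 of 32 alternatives, with values of 0.35 to 0.84.

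*FBXO32* rose less, with more spread between foetuses. Atrogin-1, its product, is the substrate-binding part of an SCF-type ligase. BA foetuses had 3.09, 3.48 and 3.12 at 110 dpc, 3.88 and 3.03 at 180 dpc, 4.42, 3.59 and 3.46 at 210 dpc, and 3.74 and 4.46 at 260 dpc. CH foetuses had 2.56 and 3.55, then 3.89, 3.60 and 3.12, then 2.45, 2.90 and 2.81, and finally 3.59, 4.47 and 3.82. All foetuses of 260 dpc were above all of 110 dpc by a narrow margin, and both other stages overlapped with each of them. The within-group SD of 0.45 was the largest of the 10 genes, against a median of 0.19 over all tested probes. *FBXO32* rose by 0.88 from 110 to 260 dpc (SE 0.26, limma adjusted p = 0.00644), or 1.85-fold. The call was lost with slide as a block (0.92, adjusted p = 0.0898), without CH replicate 1 at 110 dpc (0.64, adjusted p = 0.0565) and in the unscaled value table of the authors (0.49, adjusted p = 0.114). The second probe, below the filter, differed by 0.45 in the same direction (adjusted p = 0.083).

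*TRIM55*, the remaining ligase, stayed between 3.02 and 4.00 over all foetuses and all stages. MuRF2, its product, links microtubules, titin and myosin during sarcomere assembly. Its difference from 110 to 260 dpc was -0.12 (95% interval -0.45 to 0.20, limma adjusted p = 0.506). In the unscaled value table it was -0.51 and called (adjusted p = 0.0395), where the median of all tested probes moved by -0.36. Its other probe differed by -0.21. Within each array, the difference between the *TRIM63* and *TRIM55* probes lay between -0.34 and 0.44 at 110 dpc and between 3.20 and 3.99 at 260 dpc, a change of 3.31. The same difference for *TRIM63* and *FBXO32* changed by 2.31, from -0.06 to 1.34 at 110 dpc to 2.26 to 3.87 at 260 dpc. Shifting whole arrays, as percentile or median scaling does, leaves such a change as it is. Quantile normalization can alter it, and these differences were not computed on that scale. Both changes reached p = 0.01, the smallest that a two-sided exact permutation of the stages within breeds can give with 100 divisions.

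*CAPN3* was the calpain that rose. Calpain 3 is the muscle-specific calpain, anchored on titin, and its loss causes a limb-girdle muscular dystrophy in humans. BA values were 6.15, 6.60 and 6.79 at 110 dpc, 6.59 and 6.60 at 180 dpc, 7.28, 7.30 and 6.93 at 210 dpc, and 7.65 and 7.93 at 260 dpc. CH values were 6.71 and 6.24, then 6.78, 6.86 and 6.32, then 7.15, 6.96 and 6.44, and finally 7.32, 7.38 and 7.50. The foetuses of 110 and 180 dpc overlapped, and those of 260 dpc were above all others. *CAPN3* rose by 1.10 (SE 0.16, limma adjusted p = 1.15e-05), or 2.14-fold, and its 5 probes all rose, by 1.10 to 1.43. Of the intervals, 210 to 260 dpc was called (0.58, SE 0.15, adjusted p = 0.00492). This call was lost after quantile normalization (0.22, adjusted p = 0.286) and in the unscaled value table, where it was 0.17.

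*CAPN6* was the member that fell. Calpain 6 lacks the catalytic cysteine and is a microtubule-stabilizing protein of embryonic muscle and placenta. In BA it measured 2.90, 3.33 and 3.11 at 110 dpc, 2.46 and 2.97 at 180 dpc, 2.29, 2.30 and 2.12 at 210 dpc, and 1.41 and 1.18 at 260 dpc. In CH it measured 3.72 and 3.36, then 2.38, 2.72 and 2.63, then 1.78, 2.36 and 2.13, and finally 0.82, 1.26 and 1.25. Foetuses of 260 dpc were below all others, and the groups of 210 dpc were below those of 180 dpc in both breeds. *CAPN6* fell by 2.12 from 110 to 260 dpc (SE 0.14, limma adjusted p = 8.73e-10), to a level 4.36-fold lower. It was called in every interval, with -0.68 from 110 to 180 dpc (adjusted p = 0.00201), -0.48 from 180 to 210 dpc (adjusted p = 0.0314) and -0.96 from 210 to 260 dpc (adjusted p = 2.41e-05). The middle step lost its call in 12 of 32 alternatives, with values of -0.61 to -0.36. The gene had 1 probe on the array.

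*CAST* rose by a modest amount with a narrow spread. BA values were 4.95, 5.11 and 5.14 at 110 dpc, 5.10 and 5.32 at 180 dpc, 5.28, 5.47 and 5.16 at 210 dpc, and 5.58 and 5.65 at 260 dpc. CH values were 4.92 and 5.07, then 5.23, 5.42 and 5.32, then 5.28, 5.51 and 5.34, and finally 5.59, 5.54 and 5.71. The foetuses of 260 dpc lay above all younger ones, while 180 and 210 dpc overlapped. The rise from 110 to 260 dpc was 0.59 (SE 0.09, limma adjusted p = 1.14e-05), or 1.50-fold. In the unscaled value table the difference was 0.20 and not called (adjusted p = 0.441), on a scale where the median of all tested probes moved by -0.36. The interval from 210 to 260 dpc was called (0.28, adjusted p = 0.0106), but gave 0.09 after quantile normalization (adjusted p = 0.389) and -0.14 in the unscaled value table.

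The 10 *CAST* probes did not move alike. The files name 2 transcripts of the gene. On the one that carries the main probe, 3 of 3 probes rose, by 0.55 to 0.69. On the other, 1 of 7 probes rose, by 0.26, and the 7 differences ran from -0.09 to 0.42. The difference between these sets of probes was not tested.

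**Figure D2:**
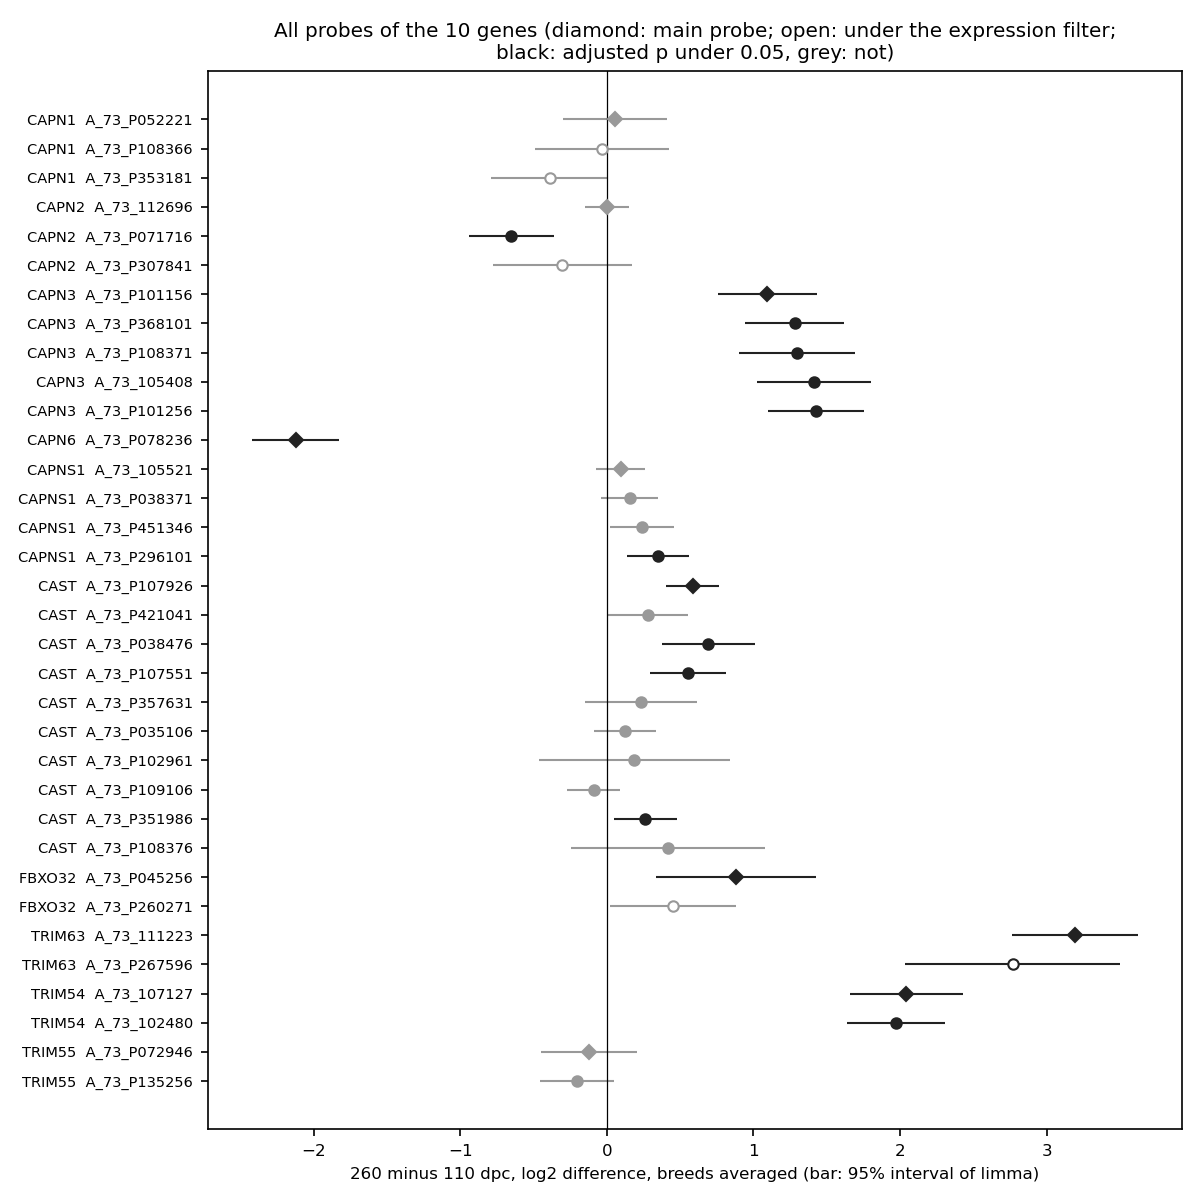
Difference from 110 to 260 dpc in log2 units (x axis, breeds averaged, bars the 95% interval of limma) for each of the 34 probes (y axis, by gene and probe name). Diamonds are main probes, open symbols failed the expression filter, and black marks an adjusted p under 0.05; 15 probes rose, 2 fell, and the 5 *CAPN3* probes lie together while the 10 *CAST* probes spread from -0.09 to 0.69.

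The ubiquitous calpains changed little. *CAPN2*, the large subunit of m-calpain, had values of 5.75 to 6.02 over the foetuses of 110 dpc, 6.02 to 6.25 at 180 dpc, 5.98 to 6.29 at 210 dpc and 5.84 to 5.98 at 260 dpc. The middle stages had the higher means and the outer stages overlapped. Its within-group SD of 0.08 was the smallest of the 10 genes. The difference was 0.21 from 110 to 180 dpc (SE 0.07, limma adjusted p = 0.0451) and -0.23 from 210 to 260 dpc (SE 0.07, adjusted p = 0.0099). Over the whole period it was -0.001 (95% interval -0.15 to 0.15, adjusted p = 0.988), but quantile normalization gave a called fall (-0.25, adjusted p = 0.00615), and the unscaled value table -0.39 (adjusted p = 0.115). The first call was lost in 20 of 32 alternatives and the second with median scaling (-0.14, adjusted p = 0.165). A second *CAPN2* probe fell by 0.65 from 110 to 260 dpc (SE 0.14, adjusted p = 0.000492), so that the probes of this gene disagreed.

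*CAPN1*, the large subunit of µ-calpain, lay close to the median probe at every stage. The youngest foetuses had 0.15 to 0.94 and the oldest 0.48 to 1.04. The difference was 0.06 (95% interval -0.30 to 0.41, limma adjusted p = 0.786), and none of its 3 probes was called. *CAPNS1* measured 7.27 to 7.55 in the youngest and 7.45 to 7.62 in the oldest foetuses, which overlapped. Its main probe differed by 0.09 (95% interval -0.08 to 0.26, adjusted p = 0.321), 1 of its 4 probes rose, by 0.35, and quantile normalization turned the main probe's sign with a call (-0.42, adjusted p = 7.02e-05).

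Against the main probe of calpastatin, the main probe of *CAPN3* shifted up and that of *CAPN2* down. Within arrays, the difference of *CAPN2* to *CAST* was 0.64 to 1.10 in the youngest foetuses against 0.25 to 0.39 in the oldest, a change of -0.59 (exact permutation p = 0.01, two-sided, the smallest 100 divisions allow). The difference of *CAPN3* to *CAST* changed by 0.51 (exact permutation p = 0.02), and that of *CAPN1* to *CAST* by -0.53 (exact permutation p = 0.06). The main probes of *CAPN1* and *CAPN2* themselves changed little and were not called. The changes of their pairs thus mostly restate the rise of the *CAST* probe. In all, 6 such pairs were computed, each from main probes. The 7 probes of the other *CAST* transcript, which moved by -0.09 to 0.42, were not paired, so these changes hold for the *CAST* main probe. Only the changes can be read, since the level of a difference between 2 probes has no meaning.

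By interval, calls were unevenly spread, both among the members and over all tested probes. From 110 to 180 dpc 2 of 10 were called, beside 24% of all tested probes. From 180 to 210 dpc there were 3 of 10 beside 9.69%, namely *TRIM63*, *TRIM54* and *CAPN6*. From 210 to 260 dpc 7 of 10 were called beside 44.7% (24.8% higher, 19.9% lower), with *TRIM63*, *TRIM54*, *CAPN3*, *FBXO32* and *CAST* higher and *CAPN6* and *CAPN2* lower. The call of *FBXO32* in this interval (0.76, adjusted p = 0.0186) was lost with slide as a block (0.70, adjusted p = 0.0647), with sire as a block (0.61, adjusted p = 0.0507), in the unscaled value table (0.35, adjusted p = 0.259), and without BA replicate 2 (0.58, adjusted p = 0.122) or CH replicate 2 of 260 dpc (0.63, adjusted p = 0.0524). The counts of the first and second interval fell to 1 under several alternatives, among them the unscaled value table.

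Stages could be compared in part within slides, because some slides held several stages of 1 breed. No slide held 110 and 260 dpc of the same breed. Within slides, 260 minus 210 dpc (3 pairs of breed and slide) was 1.38 to 2.84 for *TRIM63*, 0.52 to 1.15 for *TRIM54*, 0.36 to 0.88 for *CAPN3*, 0.20 to 0.30 for *CAST* and -1.32 to -0.88 for *CAPN6*. *CAPN2* was lower in all 3 pairs, with -0.34 to -0.11, and *FBXO32* was higher in 2 of 3, with a range of -0.68 to 0.92. In the 4 pairs of 180 and 110 dpc, *CAPN6* was lower in all, with -0.996 to -0.363, and *CAPN2* higher in all, by 0.10 to 0.27.

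Taken breed by breed, the 6 genes called on average changed in the same direction in BA and in CH from 110 to 260 dpc. In BA, 5 of 10 main probes were called from 110 to 260 dpc, beside 52.4% of all tested probes, and *FBXO32* was not (0.87, limma adjusted p = 0.0566). In CH, 6 of 10 were called, beside 52.2%, with *FBXO32* at 0.90 (adjusted p = 0.0473). *TRIM63* rose by 3.36 in BA and 3.02 in CH, and *CAPN6* fell by 1.82 and 2.43. The difference between the breeds' changes was tested as an interaction. No member passed, nor did any of the 20132 tested probes (background 0%), where 1427 probes had an unadjusted p under 0.05. Among the members *CAPN6* had the lowest p of this test. Its fall was smaller in BA by 0.61 (SE 0.28, limma adjusted p = 0.701, unadjusted 0.0449).

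The second question was whether the breeds differed in these genes. Averaged over the stages, none of the 10 main probes was called, beside 0.358% of all tested probes, and none had an unadjusted p under 0.05 in limma. For the main probes, BA minus CH ran from -0.29 for *TRIM63* (95% interval -0.58 to 0.01) to 0.33 for *FBXO32* (95% interval -0.04 to 0.71). For *CAPN1*, *CAPN6*, *CAPNS1* and *CAST* the intervals ended within 0.27 of 0 on both sides. The median size of the difference was 0.04 over the members and 0.08 over all tested probes. All 5 *CAPN3* probes had higher means in BA at 210 and 260 dpc, although at 210 dpc the foetuses of the breeds overlapped in each. At 110 and 180 dpc the probes did not share 1 direction. The dimmest and the next dimmest probe had higher means in BA at every stage. The dimmest had means of 1.80 in BA and 1.04 in CH at 110 dpc, and of 3.11 and 2.58 at 260 dpc. Another had 3.45 in BA and 3.91 in CH at 110 dpc, and 5.11 and 4.81 at 260 dpc.

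*CAPN2* had the smallest breed p when its stage-averaged difference was permuted. It was lower in BA by 0.10 on average (BA minus CH -0.10, 95% interval -0.20 to 0.01), which gave p = 0.0188 in a two-sided exact permutation of the breeds within stages (20000 divisions) and an adjusted p of 0.43 in limma. This was the lowest p of 10 genes tested in the same way, and the next was 0.0693 for *TRIM63*. At 110 dpc the BA values were 5.86, 5.75 and 5.91, below the CH values of 6.02 and 6.02. At 260 dpc they were 5.98 and 5.90, among the CH values of 5.95, 5.84 and 5.96. The other probes of *CAPN2* lay the other way, 0.29 and 0.15 higher in BA on average, neither of them called. At 110 dpc the brighter of these was higher in every BA foetus (3.295 to 3.391) than in either CH foetus (2.691 to 2.879). The direction at that stage thus depended on the probe.

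Stage by stage, no member was called between the breeds at 110, 180, 210 or 260 dpc. The background was 0.273%, 0.00993%, 0% and 0% of tested probes in these stages. At 110 dpc the breeds did not overlap in the main probes of 4 of 10 genes, beside 29.4% of tested probes. These were *CAPN2*, *CAPN6*, *CAPNS1* and *TRIM63*, all lower in BA by these probes. Each of the later stages had 1 such gene, *CAPN2* lower in BA at 180 dpc (beside 25.5%), *FBXO32* higher in BA at 210 dpc (beside 10.5%) and *CAPN3* higher in BA at 260 dpc (beside 19%). For *CAPN6* at 110 dpc the difference was -0.43 (SE 0.20, unadjusted p = 0.048, limma adjusted p = 0.358).

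**Figure D3:**
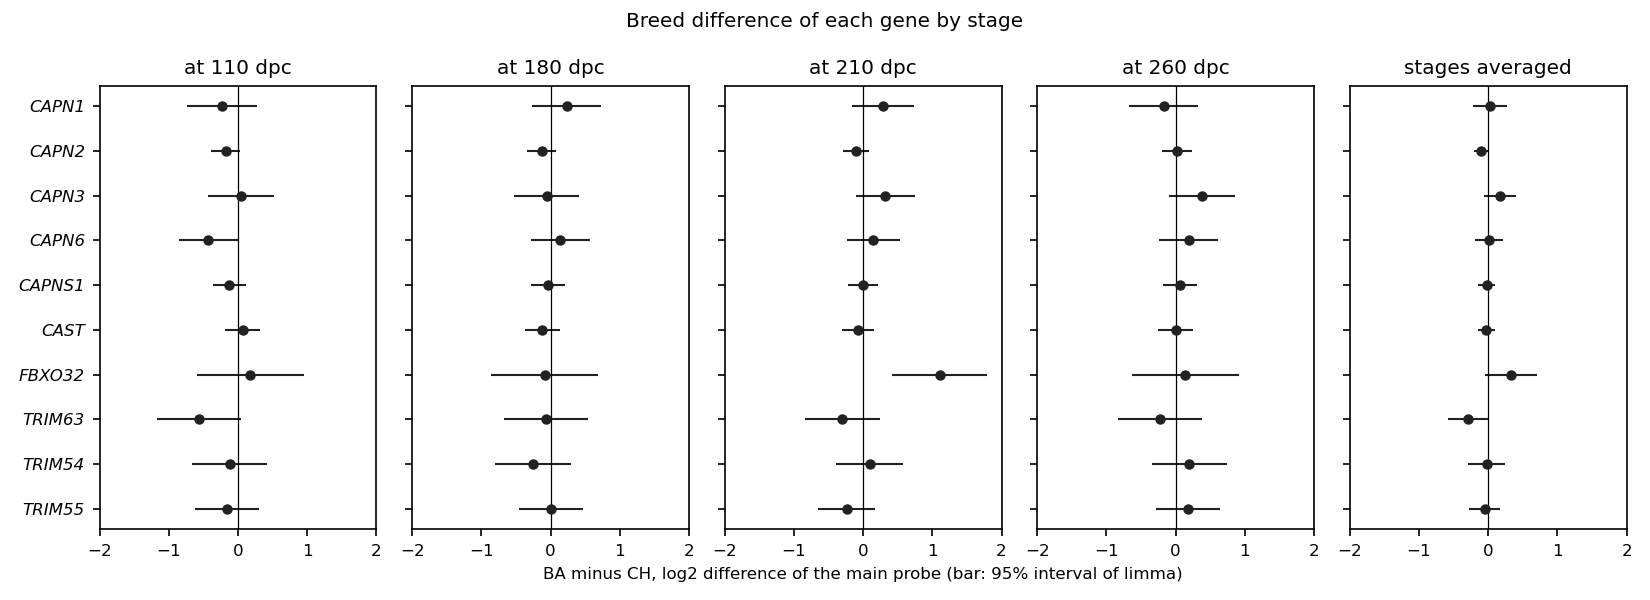
BA minus CH in log2 units (x axis) for the main probe of each of the 10 genes (y axis), at each stage and averaged over the stages. Points are the differences of group means and bars the 95% interval of limma; at 210 dpc the interval of *FBXO32*, 0.41 to 1.79, lies to the right of 0, and no difference passed the adjusted threshold.

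The largest single breed difference was that of *FBXO32* at 210 dpc. The BA foetuses had 4.42, 3.59 and 3.46 and the CH foetuses 2.45, 2.90 and 2.81, so that every BA value was above every CH value. The difference was 1.10 (SE 0.33), or 2.15-fold, with an unadjusted p of 0.00363 and an adjusted p of 0.656 in limma. Exact permutation of these 6 foetuses gave p = 0.1, the smallest that 3 against 3 allows. The second *FBXO32* probe gave 0.73 (SE 0.26, unadjusted p = 0.0117, limma adjusted p = 0.937). On both slides that held this stage of both breeds BA was higher, by 1.14 and 1.52. Over 32 alternatives the difference ran from 0.72, with sire as a block, to 1.29, and it was 0.81 without BA replicate 1 of this stage.

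The CH foetuses of 210 dpc were also below those of their neighbouring stages. In CH, *FBXO32* differed by -0.82 from 180 to 210 dpc (SE 0.33, limma adjusted p = 0.237, background 1.63%) and rose by 1.24 from 210 to 260 dpc (SE 0.33, adjusted p = 0.00727, background 36.2%). In BA the same differences were 0.37 and 0.27, neither called. The breeds' changes from 180 to 210 dpc differed by 1.19 (SE 0.49, unadjusted p = 0.027, limma adjusted p = 0.999, background 0%), a contrast chosen after these values were seen. The other ligases did not share the pattern at 210 dpc: BA minus CH was -0.30 for *TRIM63*, 0.10 for *TRIM54* and -0.23 for *TRIM55*, all uncalled.

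Sex was unequal between the groups and was compared with breed and stage in the model. No member was called between male and female foetuses, beside 0.0695% of tested probes. The largest difference was that of *CAPN3*, -0.32 in males (SE 0.11, limma adjusted p = 0.507). At 260 dpc, where *CAPN3* was higher in BA, males numbered 0 in BA and 2 in CH. For *CAPN6*, which is X-linked, it was -0.03 (SE 0.12, adjusted p = 0.962).

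The genes around the members were counted in 5 lists. Among other calpains, 6 of 11 had a probe and 2 passed the filter. *CAPN5* rose by 0.46 from 110 to 260 dpc (limma adjusted p = 0.000767) and *CAPN7* differed by 0.13. Of 18 other muscle ubiquitin ligases, 12 were tested, 6 rose, 1 fell and 5 were not called, beside 64.1% of all tested probes called. The largest changes were those of *STUB1*, a chaperone-linked ligase (0.99), *ASB5* (0.98) and *TRIM32*, mutated in a limb-girdle dystrophy, which fell by 0.85. The median of this list was 0.34, that of the 4 ligases among the members 1.46, and that of all tested probes 0.04.

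Regulators of the atrophy ligases moved in both directions. Of 20 listed symbols, 15 were tested, 8 rose, 4 fell and 3 were not called, beside 33.3% higher and 30.8% lower among all tested probes, with a median of 0.33. The largest changes were those of *HDAC5*, a class II histone deacetylase (2.04), *GADD45A*, a stress-induced gene of denervated muscle (1.96), and *PPARGC1A*, a coactivator of mitochondrial genes known to restrain atrophy (1.37). The genes that fell were *SMAD2* (-0.98), *MYOG* (-0.78), *NFKB1* (-0.40) and *RELA* (-0.25), named after their values were seen.

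Of 22 genes of autophagy and lysosomal proteolysis, 19 were tested, 10 rose, 3 fell and 6 were not called, with a median of 0.30. The share called was near the 64.1% of all tested probes. *SQSTM1*, an autophagy receptor (1.67), *MAP1LC3B*, an autophagosome protein (1.39), and *TFEB*, a regulator of lysosomal genes (1.17), rose the most. *MAP1LC3A* (-1.06), *BNIP3L* (-1.05) and *ATG12* (-0.34) fell, and are also named after their values were seen.

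Sarcomere proteins that calpain 3 or the MuRF proteins bind or cut, and their partners, changed the most of the 5 lists. Of 20, 13 had a probe and all 13 were tested, 10 rose, 1 fell and 2 were not called, beside 64.1% of all tested probes called, with a median of 1.14. *ACTN3*, the α-actinin of fast fibres, rose by 6.93, *TCAP*, the titin cap, by 3.73, and *ANKRD1*, a titin-associated repeat protein, by 3.14. The gene that fell was *SPTAN1* (-1.38), the non-erythroid α-spectrin and a classical calpain substrate, again named after its value was seen. No tested gene of the 5 lists was called between the breeds on average over the stages.

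**Figure D4:**
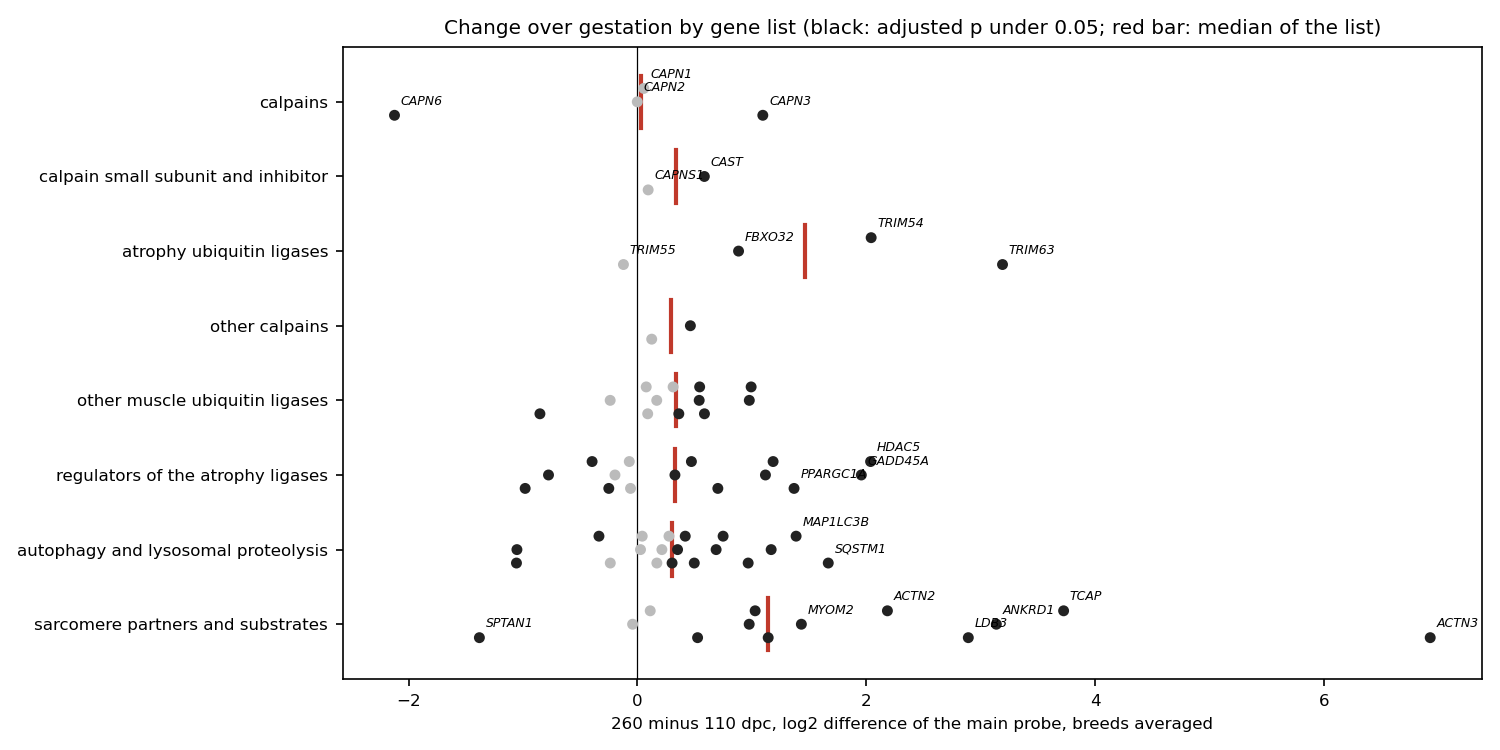
Difference from 110 to 260 dpc in log2 units (x axis, breeds averaged) of the main probe of each tested gene, by list (y axis, the members in the upper 3 rows). Each point is 1 gene, black with an adjusted p under 0.05 and grey otherwise, shifted vertically for legibility, and red bars are medians; the atrophy ligases have a median of 1.46 and the sarcomere list of 1.14.

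As a description, each member was set beside the 7931 other genes by Pearson correlation of main probes over the 21 arrays, which share stage as their main source of variation. *TRIM54* was most like *CISD1* (r = 0.976), *JPH1* (0.972) and *HADHB* (0.969). *TRIM63* was most like *AHCY* (0.959), *SPRING1* (0.951) and *YIPF7* (0.949). *CAPN6* was most like *CARHSP1* (0.975), *CDKN1C* (0.968), an inhibitor of the cell cycle, and *NUSAP1* (0.966), a mitotic spindle protein. *CAST* had *HINT2* (0.931), *HCFC1R1* (0.920) and *UQCC2* (0.919), and *CAPN3* had *NCOR1* (0.921), *CAP2* (0.921) and *ALDOC* (0.903).

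The remaining members followed. *CAPN2* was most like *LDB2* (0.920) and *ACVRL1* (0.913), genes known from blood vessel endothelium, and *LASP1* (0.870). *FBXO32* reached 0.817 with *TMEM185A*, 0.813 with *PIGH* and 0.804 with *TMEM101*. For *CAPNS1* the highest was *EDF1* (0.843), followed by *UBE2M* (0.826) and *EIF3G* (0.791). *CAPN1* with *GPATCH11* (0.723), *CUTA* (0.692) and *ATP6AP1* (0.681), and *TRIM55* with *MZT2B* (0.734), *MNT* (0.717) and *CHST10* (0.714), had no neighbour above 0.74. Endothelial markers, 4 of 4 with a probe, had summed levels in CH of 5.55 to 5.56 at 110 dpc, 6.13 to 6.16 at 180 dpc, 5.99 to 6.28 at 210 dpc and 5.26 to 5.60 at 260 dpc. In BA they were 5.38 to 5.73, 6.16 in both foetuses, 5.79 to 6.15 and 5.81 to 5.86. The middle stages were thus highest in CH, while in BA 210 and 260 dpc overlapped. Singly, these markers went in both directions from 110 to 260 dpc, with *PECAM1* at 0.48, *TEK* at 0.54, *CDH5* at -0.32 and *KDR* at -0.63. Their part in the *CAPN2* values was not tested.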

How the data were processed

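Each of the 21 foetuses gave 1 single-colour array of muscle RNA. The authors extracted spot intensity with Agilent Feature Extraction 10.7. The deposited intensity values were detrended without background subtraction, so that changes of dim probes are understated. The study's methods name normalization within and between arrays, whereas the deposited values, by their differing 75th percentiles, carry no scaling between arrays. The log2 of these intensities, for probes well above background, is also what the authors' deposited value table holds.

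Control spots and 258 outlier spot values were left out, spots of a probe were averaged, and each array's 75th percentile (525 to 1174 intensity units) was subtracted on the log2 scale before adding 2.69. The number of arrays limits the precision. Probes were named by transcript accession through RefSeq on ARS-UCD2.0, and positions are not printed because the array design used an older assembly.

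A limma model (version 3.58.1, run in R 4.3.3 with jsonlite 2.0.0 and data.table, version 1.17.8) was fitted to the 8 groups of breed and stage, with 13 residual and 3.79 prior degrees of freedom. Calls were made at a Benjamini-Hochberg adjusted p under 0.05 over 20132 probes. Probes under the filter came from a fit of all 43653 probes. The p-values measure the spread between foetuses. The text names all 10 genes, the 3 largest changes in each list and the 3 genes most correlated with each member. The code was tested on simulated data. Members and lists were chosen with earlier results of these data known.

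Alternatives changed the background (normexp, offset 50), the scaling (quantile, median, or the value table unscaled), the filter (none, or detection), the model (sex added, blocks for slide, sire or replicate number, trended robust variance) or the arrays (each left out in turn). Replicate numbers do not pair the foetuses, which are different animals.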

Additional observations from a re-analysis of the deposited data

How the results depend on the processing

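The counts of members called and 28 differences of single members were recomputed under 32 alternatives, 21 of them leaving out 1 array. Differences within 1 breed, differences between probe pairs, second probes, sexes and the other gene lists were not. The counts of members called from 110 to 260 dpc (5 to 6 without 1 array), from 210 to 260 dpc (6 to 7) and between the breeds (0 throughout) stayed within 1.5 times their reported values. The count from 110 to 180 dpc, 2 as reported, was 1 with median scaling, with the authors' value table, without a filter and with the detection filter, and 1 to 3 without 1 array. The count from 180 to 210 dpc, 3 as reported, was 1 with the authors' value table, without a filter and with sire as a block, and also 1 to 3 without 1 array. *TRIM63*, *TRIM54*, *CAPN3* and *CAPN6* kept their calls from 110 to 260 dpc in all 32. From 110 to 260 dpc the value of *CAPNS1* changed sign (-0.42 with quantile normalization and -0.30 in the value table). Those of *CAPN2* (0.10 with median scaling, and -0.024 to 0.017 without 1 array) and *CAPN1* (-0.33 in the value table, and -0.045 to 0.14 without 1 array) also did. Quantile normalization gave *CAPN2* a called -0.25, with its sign kept. From 210 to 260 dpc *CAST* changed sign (-0.14 in the value table). The value table is not scaled between arrays, and in it the median of all tested probes moved by -0.36 from 110 to 260 dpc, and by 0.13 with median scaling. Other causes were not tested. The replicate number as a block left 6 members called from 110 to 260 dpc and 0 between the breeds. *CAST* passed from 110 to 180 dpc under it (0.24, limma adjusted p = 0.0327) and under 7 of the other alternatives. Same-numbered foetuses deviated together no more than others (median correlation 0.009 over 66 pairs against -0.009 over 126), and 8 of 21 arrays correlated best with their own number.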
